A study of Mus musculus with 6 samples.

Results

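The genes described here encode innate pattern receptors and Fc receptors, measured by bulk RNA-seq in tumor endothelial cells (TECs). They were taken by name: the RefSeq rows of the expression table whose symbols are those of numbered C-type lectin genes (Clec), Toll-like receptor genes (Tlr), IgG Fc receptor genes (Fcgr), formyl peptide receptor genes (Fpr) and NLRP sensor genes (Nlrp). These are 71 of 23473 RefSeq rows, 32 Clec, 12 Tlr, 4 Fcgr, 3 Fpr and 20 Nlrp genes. The TECs were isolated from tumors of the mouse lung cancer line LLC (Lewis lung carcinoma), transplanted into C57BL/6 mice with a labelled age of 8 weeks. The 3 control (Ctrl) mice are labelled wild type. The 3 NICeCA mice carry a Cre recombinase fused to the ERT2 domain under the Cdh5 promoter and a Rosa26 allele in which a floxed stop cassette precedes the Notch1 intracellular domain, so that tamoxifen switches on Notch signaling in Cdh5-expressing cells without a ligand. Each library came from 1 mouse, and cells were captured on CD31 beads after collagenase digestion, so the receptor genes are read from whatever cells the beads held. The sources used here do not say whether the Ctrl mice received tamoxifen.

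Innate receptors recognise classes of microbial or damaged-self molecules and are known mainly from myeloid cells. C-type lectin receptors bind sugars and lipids, and several of them signal through adaptors with an activation motif to the kinase Syk. Toll-like receptors sense bacterial lipids, proteins and nucleic acids and mostly signal through Myd88. Fc gamma receptors bind the antibodies on coated targets, and formyl peptide receptors are chemotactic receptors coupled to Gi proteins. Some NLRP sensors build inflammasomes that mature interleukin-1. In tumors these genes are read mostly from macrophages, neutrophils and dendritic cells, while a few C-type lectins such as Clec14a and Clec1a are also known from endothelium.

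From each family, the promoter of the gene that rose with the largest log2 fold change is shown. The site of RBPJ was searched because RBPJ is the DNA-binding factor of Notch, the pathway made active in Cdh5-expressing cells of NICeCA mice. Whether RBPJ acts on these genes was not tested. The 250 bases before the start site are given 5′ to 3′ in the direction of the gene, from RefSeq on GRCm38.p6. Capitals mark the letters TGGGAA, the core of the RBPJ site (TTCCCA on the other strand), and GAGGAA, the core of the site of the myeloid factor PU.1 (TTCCTC on the other strand).
Clec4e promoter, chr6:123289872-123290121, minus strand: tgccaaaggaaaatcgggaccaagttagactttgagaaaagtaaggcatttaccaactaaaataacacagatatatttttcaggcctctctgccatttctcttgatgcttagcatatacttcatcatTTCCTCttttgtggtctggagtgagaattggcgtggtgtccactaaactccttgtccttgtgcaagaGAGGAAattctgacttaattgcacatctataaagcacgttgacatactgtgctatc
Fcgr1 promoter, chr3:96293970-96294219, minus strand: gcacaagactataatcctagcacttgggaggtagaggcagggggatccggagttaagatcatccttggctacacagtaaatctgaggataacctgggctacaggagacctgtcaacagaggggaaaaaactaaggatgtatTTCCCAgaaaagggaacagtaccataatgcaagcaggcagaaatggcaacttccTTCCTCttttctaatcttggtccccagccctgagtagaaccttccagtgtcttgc
Fpr1 promoter, chr17:17883940-17884189, minus strand: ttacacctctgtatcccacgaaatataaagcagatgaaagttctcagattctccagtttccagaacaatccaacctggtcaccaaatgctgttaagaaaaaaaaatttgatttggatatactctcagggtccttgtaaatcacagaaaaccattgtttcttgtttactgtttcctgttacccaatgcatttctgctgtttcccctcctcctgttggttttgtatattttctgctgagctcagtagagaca
Nlrp3 promoter, chr11:59542436-59542685, plus strand: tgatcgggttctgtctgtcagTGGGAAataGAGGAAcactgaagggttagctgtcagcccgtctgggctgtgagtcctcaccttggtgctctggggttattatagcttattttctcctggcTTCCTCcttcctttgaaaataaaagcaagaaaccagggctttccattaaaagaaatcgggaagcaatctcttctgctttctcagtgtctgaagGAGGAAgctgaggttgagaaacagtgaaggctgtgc
Tlr6 promoter, chr5:64960049-64960298, minus strand: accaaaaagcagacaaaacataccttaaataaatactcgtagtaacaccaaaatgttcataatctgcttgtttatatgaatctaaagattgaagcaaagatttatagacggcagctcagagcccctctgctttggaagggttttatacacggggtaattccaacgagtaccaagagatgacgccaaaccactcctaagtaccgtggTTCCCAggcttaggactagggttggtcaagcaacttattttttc

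The start site of the Tlr6 promoter lies 14 bases from that of its row in the table, and the other 4 share it. Each of the Fcgr1, Nlrp3 and Tlr6 windows held 1 RBPJ core, and the Clec4e and Fpr1 windows held 0. The PU.1 core was found 2 times in the Clec4e window, 3 times in the Nlrp3 window, 1 time in the Fcgr1 window and 0 times in the Fpr1 and Tlr6 windows. The AP-1 core TGANTCA, searched as well, was found 0 times in these 5 windows. RefSeq promoters were matched for 57 of the 71 genes. Of these, 24.6% held the RBPJ core, beside 21.6% of all 32851 promoters searched over the same length on both strands. The PU.1 core stood in 47.4% of the receptor promoters beside 23.3% of all promoters, and the AP-1 core in 15.8% beside 6.75%. No match overlapped a match of another motif. Among the 10 matched promoters of genes that rose, 5 held the RBPJ core, 7 the PU.1 core and 0 the AP-1 core. Clec4n, Clec10a and Tlr4, which also rose, had no matched promoter. Among the 19 matched promoters of tested genes that were not called, 3 held the RBPJ core, 11 the PU.1 core and 2 the AP-1 core. Among the 26 matched promoters of untested genes these counts were 6, 8 and 7. Among the 2 of genes that fell they were 0, 1 and 0. These groups are small, and no difference between them was tested. Such matches are short and describe letters only, not sites in use.

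Values are RPKM (reads scaled to the length of the gene model and to the total of the library), and differences are log2 fold changes of RPKM + 1, NICeCA minus Ctrl, with the standard error (SE), from limma. On this scale the change of low genes is understated. RefSeq rows took 27793301 to 30769916 reads per library, of which the 71 genes took 55631 to 98803 reads in Ctrl (0.181% to 0.327%) and 108470 to 132681 in NICeCA (0.372% to 0.459%). The mean of 1 RPKM needed for a test was reached by 38 genes and missed by 33. In bulk samples, fewer cells of a type and less RNA per cell cannot be told apart.

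In the CD31-captured NICeCA libraries, at least 1 gene of each of the 5 families was called higher. Of the 4 tested Nlrp genes, 1 rose and 2 fell. Of the 38 tested genes, 13 rose (34.2%), where 5.88% of all 12320 tested rows did, and 4 fell (10.5%), where 7.68% of all tested rows did (limma, Benjamini-Hochberg adjusted p under 0.05). The genes that rose were Clec4d, Clec4n, Clec4e, Clec2d, Clec10a and Clec5a, the Fc receptor Fcgr1, both tested formyl peptide receptors, the inflammasome sensor Nlrp3, and Tlr4, Tlr6 and Tlr13. Clec1a, Clec9a, Nlrp1b and the pseudogene Nlrp1c-ps fell. The other 21 did not pass the test, among them the receptors with the highest levels, Fcgr3 and Fcgr2b. The median log2 fold change was 0.59 over the tested receptors and -0.05 over all tested rows, with 28 receptors above and 10 below 0. In 13 of the 38 receptors (34.2%) all 3 NICeCA libraries lay above all 3 Ctrl libraries, beside 16.5% of all tested rows. In 5 of the 38 they all lay below, a smaller share than the 24.4% of all tested rows. The receptors' RPKM summed to 980, 691 and 1282 in Ctrl and to 1921, 1846 and 1472 in NICeCA, so that the groups did not overlap.

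These counts, and those of all tested rows, depended on single libraries. Without NICeCA replicate 2 no receptor was called in either direction by limma (14 higher and 4 lower at an unadjusted p under 0.05), when 0.138% of all rows were called higher and 0.0081% lower. Without NICeCA replicate 1, 3 were called higher and 0 lower (15 and 5 at an unadjusted p under 0.05). Without Ctrl replicate 1 or Ctrl replicate 2, 7 were called higher and 1 lower. Leaving out Ctrl replicate 3 gave 15 and 2, and leaving out NICeCA replicate 3 gave 12 and 2. Calls over all tested rows moved too, from 725 higher and 946 lower to 90 and 14 without NICeCA replicate 1. They were 501 and 534 without Ctrl replicate 1, and 244 and 135 without Ctrl replicate 2. Without Ctrl replicate 3 they were 911 and 744, and without NICeCA replicate 3 they were 505 and 832. Clec4d, Fcgr1 and Fpr1 were the 3 that stayed called in 5 of the 6 fits with a library left out. Clec4n, Nlrp3, Tlr6 and Tlr13 lost their calls without NICeCA replicate 1 or NICeCA replicate 2, and Clec9a also without Ctrl replicate 2. Clec4e, Clec5a, Clec10a and Tlr4 lost theirs without Ctrl replicate 1, Ctrl replicate 2, NICeCA replicate 1 or NICeCA replicate 2, and Clec2d and Fpr2 without any library but Ctrl replicate 3. Nlrp1c-ps lost its call without Ctrl replicate 1 or any NICeCA replicate. The lost calls had limma adjusted p-values of 0.051 to 0.16. Each of the 17 called genes kept its sign in all 6 fits, with a fold change on the log2 scale of 0.711 to 1.28 times that of all libraries.

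**Figure D1:**
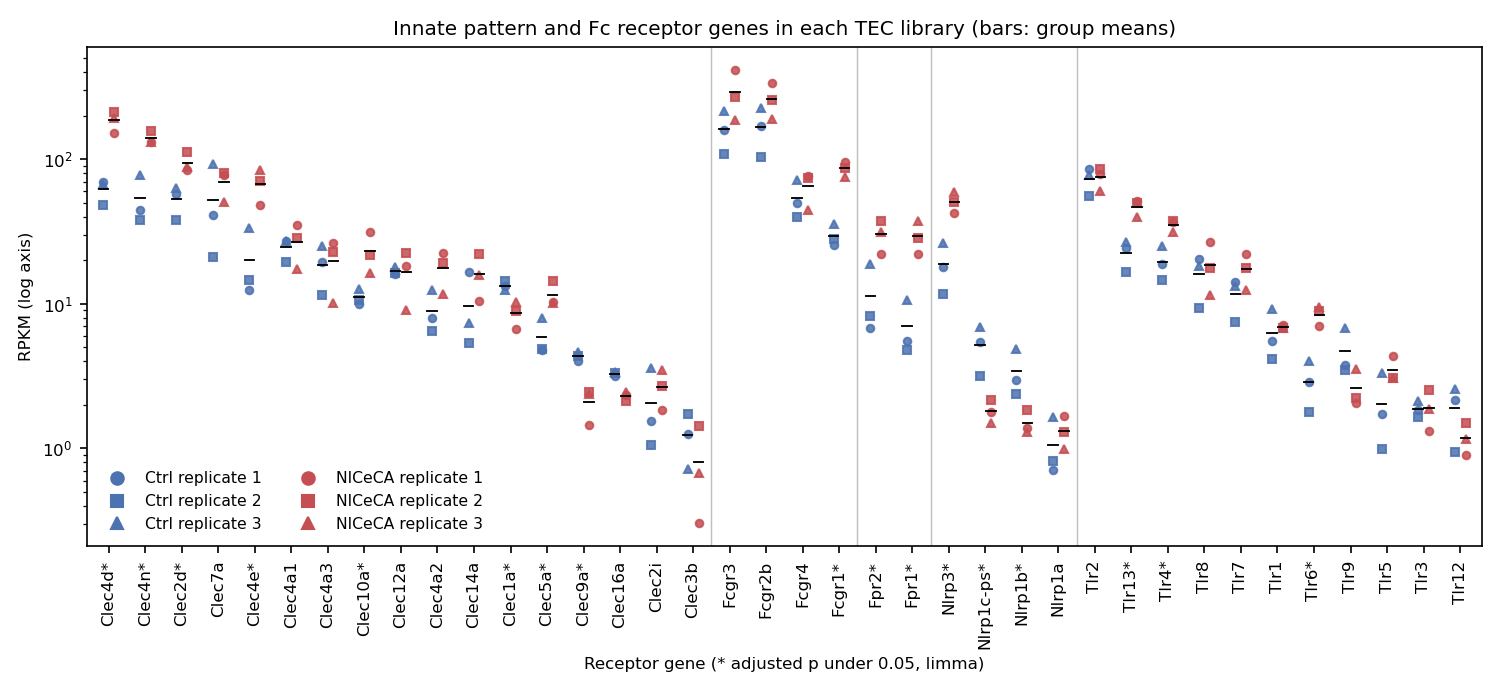
RPKM (log axis) of the 38 tested receptor genes in each of the 6 TEC libraries, ordered by family and mean level, with Ctrl in blue, NICeCA in red, 1 marker shape per replicate and bars for the group means; an asterisk marks an adjusted p under 0.05. Fcgr3 and Fcgr2b have the highest means with overlapping groups, while Clec4d, Fcgr1 and Fpr1 show 3 NICeCA libraries above all 3 Ctrl libraries.

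**Figure D2:**
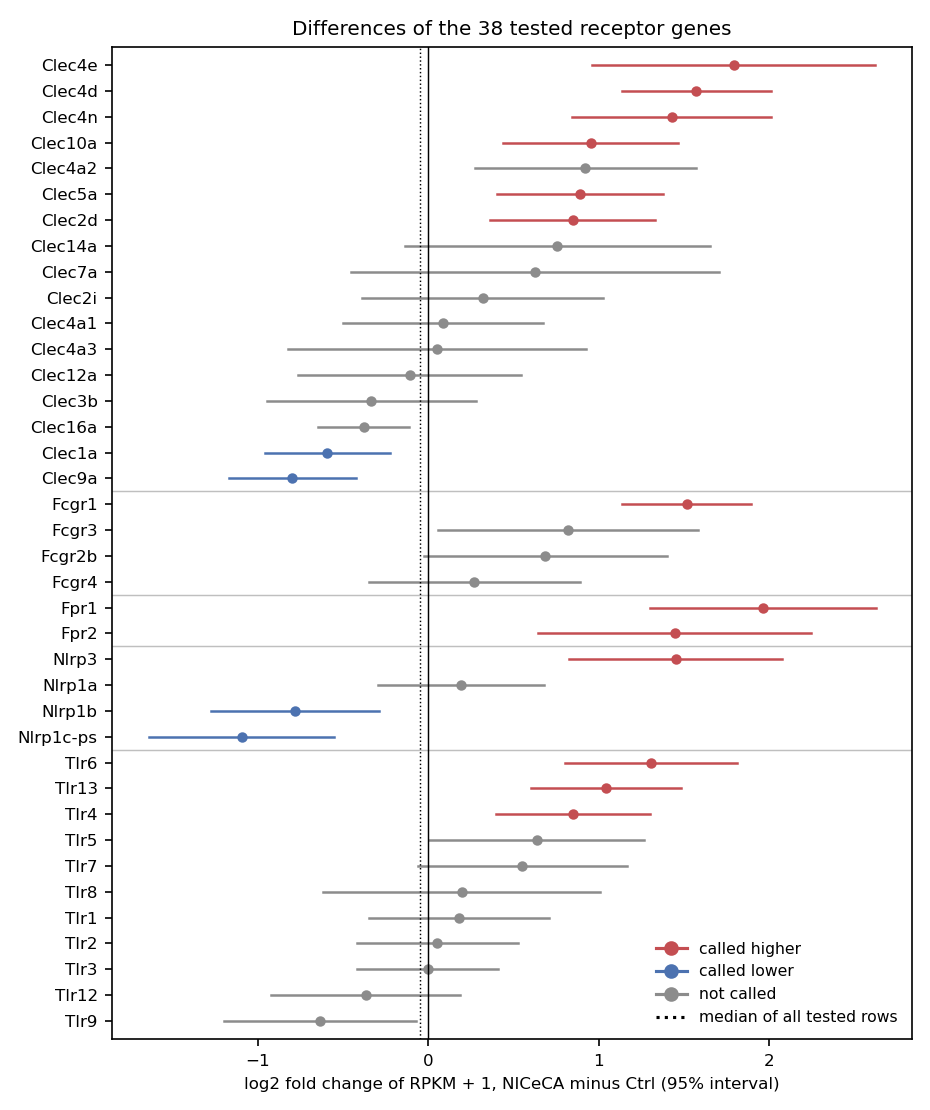
log2 fold change (NICeCA minus Ctrl, RPKM + 1) of the 38 tested receptor genes with its 95% interval, grouped by family, red where called higher, blue where called lower and grey where not called. The dotted line is the median of all tested rows, -0.05, and the 13 red intervals lie above it.

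Among the C-type lectins, the cluster of activating receptors on chromosome 6 changed most. Clec4e (chr6:123281789-123289871, GRCm38), which encodes Mincle, a receptor for mycobacterial glycolipid and for a protein of dead cells, had 12.4, 14.7 and 33.4 RPKM in Ctrl and 48.2, 70.9 and 83.7 RPKM in NICeCA. Ctrl replicate 3 was the highest of its group, and the groups did not overlap (log2 fold change 1.79, SE 0.36, limma adjusted p = 0.029). Clec4d (chr6:123262107-123275268), whose product pairs with Mincle, had 69.4, 48.6 and 67.8 RPKM in Ctrl and 153, 212 and 192 RPKM in NICeCA. The groups did not overlap (log2 fold change 1.57, SE 0.19, limma adjusted p = 0.011), and its mean level was the highest of the Clec genes. Clec4n (chr6:123229843-123247024), encoding the fungal mannan receptor Dectin-2, had 44.4, 38.1 and 78.2 RPKM in Ctrl and 132, 156 and 131 RPKM in NICeCA. Its groups were apart as well (log2 fold change 1.43, SE 0.25, limma adjusted p = 0.022). These neighbours are similar in sequence, and the sources used here do not say how reads shared between them were counted.

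The remaining Clec genes that rose did so by about 1 log2 unit or less. Clec10a (chr11:70166623-70170836), a galactose-binding lectin of macrophages, had 9.95, 10.6 and 12.7 RPKM in Ctrl and 31.1, 21.9 and 16.2 RPKM in NICeCA (log2 fold change 0.95, SE 0.22, limma adjusted p = 0.037). Clec5a (chr6:40574898-40585805), a myeloid receptor that signals with the adaptor Dap12, had 4.76, 4.85 and 7.94 RPKM in Ctrl and 10.3, 14.3 and 10.1 RPKM in NICeCA (log2 fold change 0.89, SE 0.21, limma adjusted p = 0.038). The row of a microRNA, Mir1950, overlaps that of Clec5a on the same strand. Clec2d (chr6:129180615-129186535), a ligand of an inhibitory receptor of NK cells, had 57.6, 38.1 and 63.1 RPKM in Ctrl and 84.4, 112 and 88.0 RPKM in NICeCA (log2 fold change 0.85, SE 0.21, limma adjusted p = 0.041). In all of them the lowest NICeCA library was above the highest Ctrl library.

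Clec9a and Clec1a went the other way. Clec9a (chr6:129408862-129424764), a receptor for the exposed actin of dead cells known from cross-presenting dendritic cells, had 4.01, 4.33 and 4.65 RPKM in Ctrl and 1.46, 2.44 and 2.39 RPKM in NICeCA (log2 fold change -0.80, SE 0.16, limma adjusted p = 0.029). The 6 dendritic cell markers summed to 18.4 to 48.7 RPKM in Ctrl and 32.7 to 35.9 RPKM in NICeCA, none of the 5 tested was called by limma (0 at an unadjusted p under 0.05), and Xcr1, a marker of the same dendritic cell subset, was at 0.241 to 0.374 RPKM. Clec1a (chr6:129426684-129452000), known from endothelial and myeloid cells, had 13.3, 14.4 and 12.4 RPKM in Ctrl and 6.72, 8.97 and 10.3 RPKM in NICeCA. All NICeCA libraries were lower than all Ctrl libraries (log2 fold change -0.59, SE 0.16, limma adjusted p = 0.048), and the call was lost in 5 of the 6 fits with a library left out.

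The Clec genes that did not pass the test held both myeloid and endothelial receptors. Clec7a, encoding the beta-glucan receptor Dectin-1, had 41.3, 21.2 and 93.1 RPKM in Ctrl and 77.4, 80.1 and 50.3 RPKM in NICeCA. The spread within Ctrl was wider than the difference (log2 fold change 0.63, 95% interval -0.45 to 1.71, limma adjusted p = 0.36). Clec14a, an endothelial lectin of growing vessels, had 16.5, 5.35 and 7.32 RPKM in Ctrl and 10.5, 22.0 and 15.9 RPKM in NICeCA (log2 fold change 0.76, 95% interval -0.14 to 1.65, limma adjusted p = 0.20). Clec4a2, an inhibitory receptor, had a log2 fold change of 0.92 with the NICeCA replicate 3 value of 11.7 RPKM below the highest Ctrl value of 12.4 RPKM (limma adjusted p = 0.063). It was called without Ctrl replicate 3 and without NICeCA replicate 3. Clec12a, which inhibits myeloid activation, had 16.1 to 17.9 RPKM in Ctrl and 9.02 to 22.3 RPKM in NICeCA. Clec16a, a widely expressed gene of autophagy whose product is no typical lectin receptor, had 3.17 to 3.37 RPKM in Ctrl and 2.14 to 2.45 RPKM in NICeCA, separated but not called (log2 fold change -0.38, limma adjusted p = 0.064). Limma voom on recovered reads did call it. Clec4a1, Clec4a3, Clec2i and Clec3b had log2 fold changes between -0.33 and 0.32 with overlapping groups. Clec3b, the secreted tetranectin gene, was the tested receptor nearest to the filter at a mean of 1.02 RPKM.

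Of the Fc gamma receptors, the high-affinity receptor stood apart from the rest. Fcgr1 (chr3:96282909-96293969), which binds monomeric IgG, had 25.3, 27.9 and 35.7 RPKM in Ctrl and 96.2, 87.1 and 75.5 RPKM in NICeCA. Its mean was 2.91-fold higher in NICeCA and the groups were far apart (log2 fold change 1.52, SE 0.16, limma adjusted p = 0.0092). The low-affinity activating receptor gene Fcgr3 (chr1:171051169-171059403) had 160, 109 and 215 RPKM in Ctrl and 416, 267 and 187 RPKM in NICeCA. NICeCA replicate 3 lay below Ctrl replicate 3, and the difference did not pass the test (log2 fold change 0.82, 95% interval 0.06 to 1.58, limma adjusted p = 0.12). The gene of the inhibitory receptor, Fcgr2b (chr1:170960559-170976071), had 169, 103 and 226 RPKM in Ctrl and 336, 257 and 191 RPKM in NICeCA, with the same order of libraries (log2 fold change 0.69, 95% interval -0.03 to 1.40, limma adjusted p = 0.15). Fcgr4, another activating receptor gene, had 50.0, 40.0 and 71.7 RPKM in Ctrl and 77.1, 73.6 and 44.8 RPKM in NICeCA (log2 fold change 0.27, 95% interval -0.35 to 0.89). Fcgr2b and Fcgr3 share similar exons for their outer domains, so the split of reads between them is uncertain.

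Both tested formyl peptide receptors rose. Fpr1 (chr17:17876471-17883939), the receptor for bacterial formyl peptides, had 5.56, 4.82 and 10.6 RPKM in Ctrl and 22.0, 28.5 and 37.6 RPKM in NICeCA. At 4.20-fold between the group means, it had the largest log2 fold change of the 38 tested receptors (1.96, SE 0.29, limma adjusted p = 0.015). Fpr2 (chr17:17887824-17893952), which also binds annexin A1 and serum amyloid A, had 6.82, 8.25 and 18.7 RPKM in Ctrl and 22.0, 37.5 and 31.6 RPKM in NICeCA (log2 fold change 1.45, SE 0.35, limma adjusted p = 0.039). Its lowest NICeCA library was only slightly above Ctrl replicate 3. Fpr3 had a mean of 0.015 RPKM and was not tested.

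The Nlrp family was read from few genes, since 16 of its 20 rows were under the filter and 2 were at 0 in all libraries. Nlrp3 (chr11:59542686-59566956), the sensor of a damage-triggered inflammasome, had 17.9, 11.8 and 26.5 RPKM in Ctrl and 42.3, 50.6 and 59.7 RPKM in NICeCA. The groups did not overlap (log2 fold change 1.45, SE 0.27, limma adjusted p = 0.024). Nlrp1b (chr11:71153102-71230733), another inflammasome sensor gene, had 2.98, 2.39 and 4.87 RPKM in Ctrl and 1.39, 1.84 and 1.30 RPKM in NICeCA (log2 fold change -0.78, SE 0.21, limma adjusted p = 0.049). Its call was lost in each of the 6 fits with a library left out. The neighbouring pseudogene Nlrp1c-ps (chr11:71242430-71285232) had 5.46, 3.15 and 6.94 RPKM in Ctrl and 1.78, 2.16 and 1.49 RPKM in NICeCA (log2 fold change -1.09, SE 0.24, limma adjusted p = 0.033). The remaining copy, Nlrp1a, had 0.709, 0.815 and 1.66 RPKM in Ctrl and 1.69, 1.30 and 0.995 RPKM in NICeCA, with overlapping groups (log2 fold change 0.19, 95% interval -0.29 to 0.68). These 3 copies are near-identical in parts, so reads may be assigned to the wrong copy. Nlrp12, a regulator of myeloid signaling, was the highest of the untested genes at a mean of 0.864 RPKM, with 53 to 140 reads in Ctrl and 159 to 186 in NICeCA. The epithelial and skin sensors Nlrp6 and Nlrp10 were at means of 0.0375 and 0.244 RPKM.

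Toll-like receptor genes differed by member. Tlr4 (chr4:66827811-66842796), the receptor for lipopolysaccharide, had 18.7, 14.5 and 25.1 RPKM in Ctrl and 36.9, 37.3 and 31.2 RPKM in NICeCA (log2 fold change 0.85, SE 0.20, limma adjusted p = 0.037). Tlr13 (chrX:106143275-106160493), which senses bacterial ribosomal RNA, had 24.2, 16.7 and 26.6 RPKM in Ctrl and 51.1, 49.6 and 39.9 RPKM in NICeCA (log2 fold change 1.04, SE 0.19, limma adjusted p = 0.024). Tlr6 (chr5:64953095-64960034), a partner of Tlr2 for diacyl lipopeptides, had 2.88, 1.80 and 4.02 RPKM in Ctrl and 7.0, 8.86 and 9.44 RPKM in NICeCA (log2 fold change 1.31, SE 0.22, limma adjusted p = 0.020). In these 3 genes every NICeCA library was above every Ctrl library. Tlr2 itself, the highest of the family, had 85.7, 55.3 and 77.3 RPKM in Ctrl and 79.5, 86.2 and 60.0 RPKM in NICeCA, with overlapping groups and a log2 fold change of 0.05 (95% interval -0.42 to 0.53). Tlr1, the other partner of Tlr2, was at 4.15 to 9.16 RPKM in Ctrl and 6.78 to 7.15 RPKM in NICeCA.

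The nucleic acid sensors of endosomes, Tlr13 aside, did not pass the test. Tlr7, a sensor of single-stranded RNA, had 14.1, 7.54 and 13.3 RPKM in Ctrl and 22.0, 17.6 and 12.5 RPKM in NICeCA (log2 fold change 0.55, 95% interval -0.06 to 1.16, limma adjusted p = 0.18). Tlr9, the sensor of unmethylated CpG DNA, had 3.78, 3.49 and 6.78 RPKM in Ctrl and 2.05, 2.24 and 3.52 RPKM in NICeCA, overlapping by NICeCA replicate 3 alone (log2 fold change -0.63, 95% interval -1.20 to -0.07, limma adjusted p = 0.11). Tlr3, for double-stranded RNA and known from endothelium too, was at 1.65 to 2.13 RPKM in Ctrl and 1.31 to 2.52 RPKM in NICeCA. The interval of Tlr8 reached from -0.61 to 1.01 in log2 units. Tlr5 and Tlr12, which are not among the nucleic acid sensors, had intervals from 0.01 to 1.27 and from -0.92 to 0.19. Tlr5 did not pass with all libraries but was called higher without Ctrl replicate 3. Tlr11 was the only Tlr gene under the filter, at a mean of 0.229 RPKM.

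Of the 33 untested receptors, Nlrp12 and Clec4b1 (a mean of 0.845 RPKM) were nearest to the filter from below, while Clec3b and Nlrp1a (1.19 RPKM) were nearest from above. Clec1b, the podoplanin receptor of platelets, was at 0.526 to 0.722 RPKM in Ctrl and 0.605 to 0.918 RPKM in NICeCA, or 24 to 40 reads. Clec11a, a secreted growth factor of bone, was at a mean of 0.475 RPKM. The other untested rows had means of 0.360 RPKM or less. Rows of Clec2g, Clec2i, Nlrp2 and Nlrp5-ps overlap other rows of the table, so their reads may be shared.

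Pairs of receptors were also set against each other within each library, as log2 ratios of RPKM + 1 compared by an exact permutation test over the 20 assignments, whose smallest two-sided p is 0.1. The ratio of Tlr2 to Tlr4 was 2.14, 1.86 and 1.58 in Ctrl and 1.09, 1.19 and 0.92 in NICeCA, a difference of -0.79 with all NICeCA libraries below Ctrl (exact p = 0.1, adjusted over 5 pairs 0.25). The ratio of Fcgr4 to Fcgr3 was -1.66, -1.42 and -1.57 in Ctrl and -2.42, -1.84 and -2.04 in NICeCA, also without overlap (difference -0.55, exact p = 0.1, adjusted 0.25). The inhibitory to activating ratio, Fcgr2b to Fcgr3, was 0.02 ± 0.09 in Ctrl and -0.11 ± 0.17 in NICeCA (SD, n = 3 each, exact permutation p = 0.3). It overlapped between the groups. Fpr2 to Fpr1 differed by -0.52 and Clec4e to Clec7a by 1.16, both with overlapping groups (exact p = 0.2 each, adjusted 0.25). No pair could pass the threshold in this design.

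**Figure D3:**
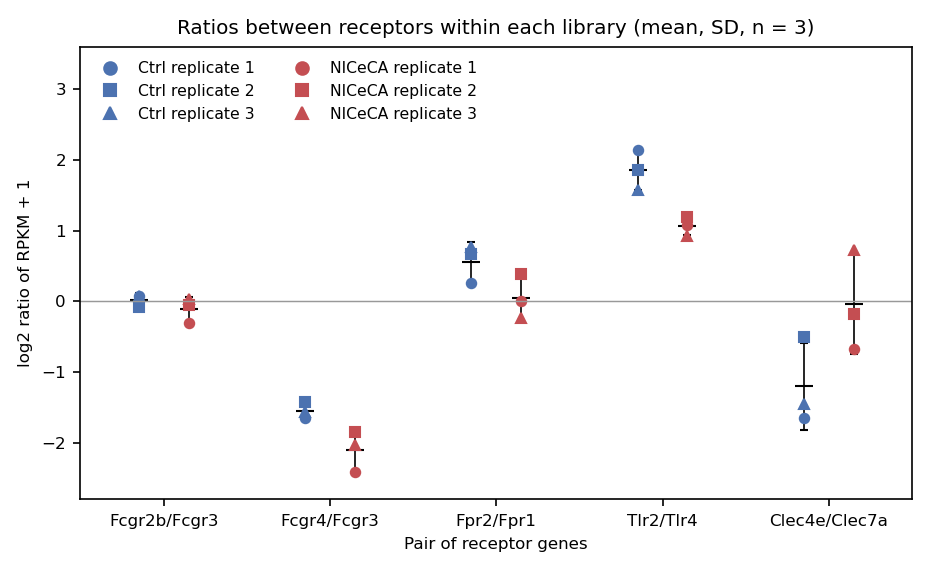
log2 ratio of RPKM + 1 between 2 receptors in each library for 5 pairs, Ctrl in blue and NICeCA in red, with mean and SD (n = 3) in black. Tlr2/Tlr4 and Fcgr4/Fcgr3 show no overlap between groups, at differences of -0.79 and -0.55, and the other 3 pairs overlap.

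Genes that work with the receptors were read from a list of 86 partners written from general knowledge, of which 72 were tested. Of these, 6 rose (8.33%, beside 5.88% of all tested rows) and 2 fell (2.78%, beside 7.68%), shares near the background, so the values below describe single genes. Cd14, the co-receptor that hands lipopolysaccharide to Tlr4, had 687, 451 and 641 RPKM in Ctrl and 1240, 1083 and 1105 RPKM in NICeCA (log2 fold change 0.97, SE 0.19, limma adjusted p = 0.026). Ly96, encoding the Tlr4 subunit MD-2, rose by 0.61 (limma adjusted p = 0.044) and Tollip, an adaptor that restrains signaling, by 0.51 (limma adjusted p = 0.039). Sigirr, an inhibitory receptor of the Tlr and interleukin-1 pathway, had 13.7, 16.0 and 11.7 RPKM in Ctrl and 6.51, 6.63 and 9.93 RPKM in NICeCA (log2 fold change -0.78, SE 0.18, limma adjusted p = 0.038). The 27 Tlr partners held 3 that rose (11.1%) and 1 that fell (3.70%), to be read against the same 5.88% and 7.68% of all tested rows. Myd88, the main adaptor, was not among them, at 22.4 to 32.6 RPKM in Ctrl and 27.6 to 33.6 RPKM in NICeCA. Cd36 and Irf7 had log2 fold changes of 1.06 and 1.04 and did not pass (limma adjusted p = 0.066 and 0.059).

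Of the 22 tested inflammasome partners, 3 rose (13.6%), 1 fell (4.55%) and 18 did not pass, where 5.88% and 7.68% of all tested rows rose and fell. The genes that rose were the adaptor gene Pycard and the cytokine genes Il1b and Il1a. Pycard, encoding the adaptor ASC, had 21.3, 18.3 and 21.7 RPKM in Ctrl and 53.4, 40.7 and 29.6 RPKM in NICeCA (log2 fold change 0.94, SE 0.21, limma adjusted p = 0.034). Il1b, a substrate of the inflammasome protease, had 252, 170 and 386 RPKM in Ctrl and 718, 859 and 930 RPKM in NICeCA (log2 fold change 1.70, SE 0.28, limma adjusted p = 0.020). Il1a, the related alarm cytokine, had 6.15, 3.93 and 11.9 RPKM in Ctrl and 33.6, 64.2 and 74.7 RPKM in NICeCA, and its log2 fold change of 2.85 (SE 0.39, limma adjusted p = 0.012) was the largest on the list. Casp1, the protease that cuts pro-interleukin-1 beta, was at 8.53 to 13.9 RPKM in Ctrl and 12.0 to 17.8 RPKM in NICeCA and did not pass (limma adjusted p = 0.22). Il18, the gene of its other cytokine substrate on the list, did not pass either (log2 fold change 0.52, limma adjusted p = 0.069). Nlrc5, an activator of MHC class I genes, fell by 0.65 (limma adjusted p = 0.030).

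The shared adaptors of Fc receptors and C-type lectins were not called. Of 19 tested adaptors and kinases, 0 passed in limma and 0 in limma voom, with 3 at an unadjusted p under 0.05. Fcer1g, the common gamma chain of Fcgr1, Fcgr3, Fcgr4 and Clec4e, had 149, 138 and 230 RPKM in Ctrl and 348, 217 and 195 RPKM in NICeCA (log2 fold change 0.54, 95% interval -0.08 to 1.16, limma adjusted p = 0.19). Tyrobp, encoding Dap12, had 323, 254 and 285 RPKM in Ctrl and 480, 436 and 345 RPKM in NICeCA, without overlap (log2 fold change 0.54, limma adjusted p = 0.068). Syk was at 21.3 to 43.4 RPKM in Ctrl and 42.9 to 44.6 RPKM in NICeCA. Fcer1a and Malt1 had the largest log2 fold changes of this group, 0.70 and 0.64, and overlapped. None of the 4 tested partners of formyl peptide receptors passed in limma or limma voom (4 at an unadjusted p under 0.05), of which Saa3 had a log2 fold change of 0.78, Anxa1 of 0.38 and Gnai2 of 0.38. Without NICeCA replicate 2, 0 partners were called by limma (15 at an unadjusted p under 0.05), without NICeCA replicate 1, 1 rose, and without Ctrl replicate 3, 15 rose.

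**Figure D4:**
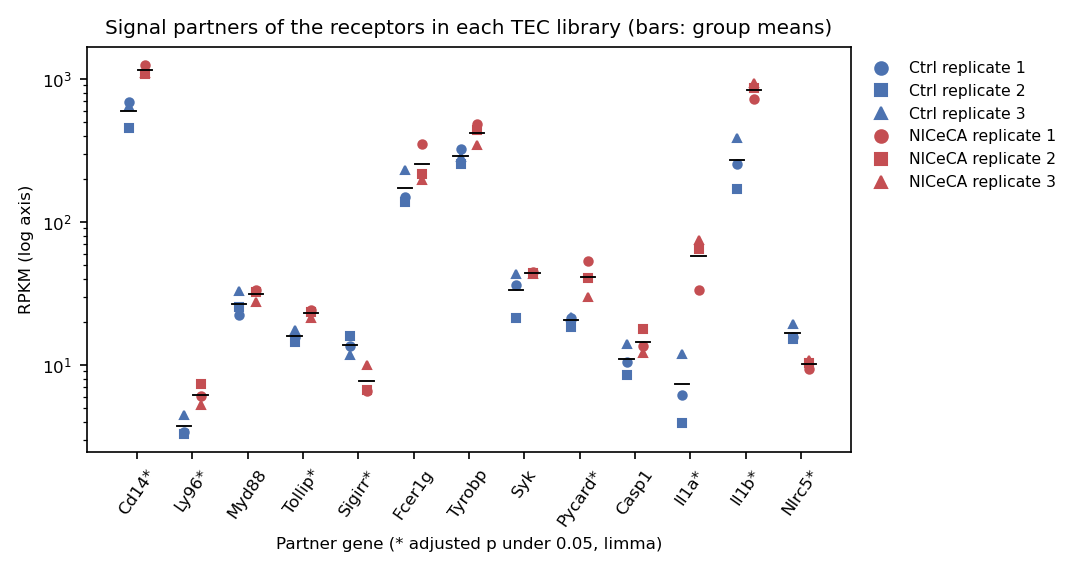
RPKM (log axis) of 13 signal partners of the receptors in each TEC library, the 8 called ones (asterisks) and 5 adaptors, kinases and proteases, with Ctrl in blue, NICeCA in red and bars for group means. Cd14, Il1b and Il1a lie wholly higher in NICeCA, and Sigirr and Nlrc5 wholly lower, while Myd88, Fcer1g, Syk and Casp1 overlap.

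Of the leukocyte marker lists, mainly that of neutrophils moved with the groups beside these receptors. The neutrophil list had 9 genes with a row, of which 7 were tested and 6 rose, at a median of 2.10 in log2 units and a summed level of 117 to 269 RPKM in Ctrl and 594 to 1641 RPKM in NICeCA. Camp and Ltf, genes of neutrophil granules, were under the filter. Of the 10 macrophage and monocyte markers 1 rose (Cd68, log2 fold change 0.75, limma adjusted p = 0.022), with a median of -0.07 and sums of 2807 to 3925 RPKM in Ctrl and 1791 to 3748 RPKM in NICeCA. C1qa alone had 375 to 1112 RPKM. Of the 10 endothelial markers, all with log2 fold changes above 0, 1 rose (Vwf), and their sums were 198 to 490 RPKM in Ctrl and 413 to 528 RPKM in NICeCA. Endothelial and myeloid markers were thus both abundant in the libraries labelled as TECs. The platelet factor gene Pf4 was at 102 to 172 RPKM in Ctrl and 889 to 1126 RPKM in NICeCA, while the platelet markers Itga2b, Gp9, Gp1bb and Treml1 stayed between 0.286 and 2.58 RPKM. Of the other lists, 1 of 3 tested lymphatic endothelial markers rose (Pdpn, with Ccl21a at 0 in all libraries), 2 of 5 fibroblast markers fell (Pdgfra and Lum) and 1 of 2 tested epithelial markers fell (Krt18). No marker of B, T, NK, mast or plasmacytoid dendritic cells was called by limma (0, 1, 0, 0 and 2 at an unadjusted p under 0.05).

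Each receptor was therefore also set against these lists within the same library, as its log2(RPKM + 1) minus the mean of the list. The neutrophil list itself rose, at a median of 2.10 in log2 units, and receptors that rose less than the mean of that list come out lower against it. The macrophage and monocyte list had a median of -0.07, so differences against it stay near those of the receptors themselves. The endothelial list had a median of 0.66, with all 10 markers above 0. Receptors that fell therefore come out lower on average against it, and those that rose come out with smaller differences. Against neutrophil markers, none of the 13 receptors that rose stayed above Ctrl in all NICeCA libraries, 10 overlapped and 3 (Clec2d, Clec5a and Tlr4) lay below, with a median difference of -0.43. Clec4e and Fpr1 differed least from that list, by -0.07 and 0.10. Against macrophage and monocyte markers, 10 of the 13 lay above Ctrl and 3 (Clec2d, Clec5a and Fpr2) overlapped, with a median difference of 1.36. Against endothelial markers, Clec4d, Fcgr1 and Fpr1 lay above at 0.87, 0.81 and 1.26, and the other 10 overlapped. The 4 receptors that fell lay below Ctrl against the neutrophil and endothelial lists, both of which were themselves higher in NICeCA on average. Nlrp1b and Nlrp1c-ps lay below Ctrl against the macrophage list as well. Of the 21 receptors that were not called, 16 also lay below Ctrl against the neutrophil list, which itself rose, and 4 did so against the endothelial list. These are descriptions of levels without a test. The part of neutrophils, macrophages or any other cell in the differences of the receptors was not tested.

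**Figure D5:**
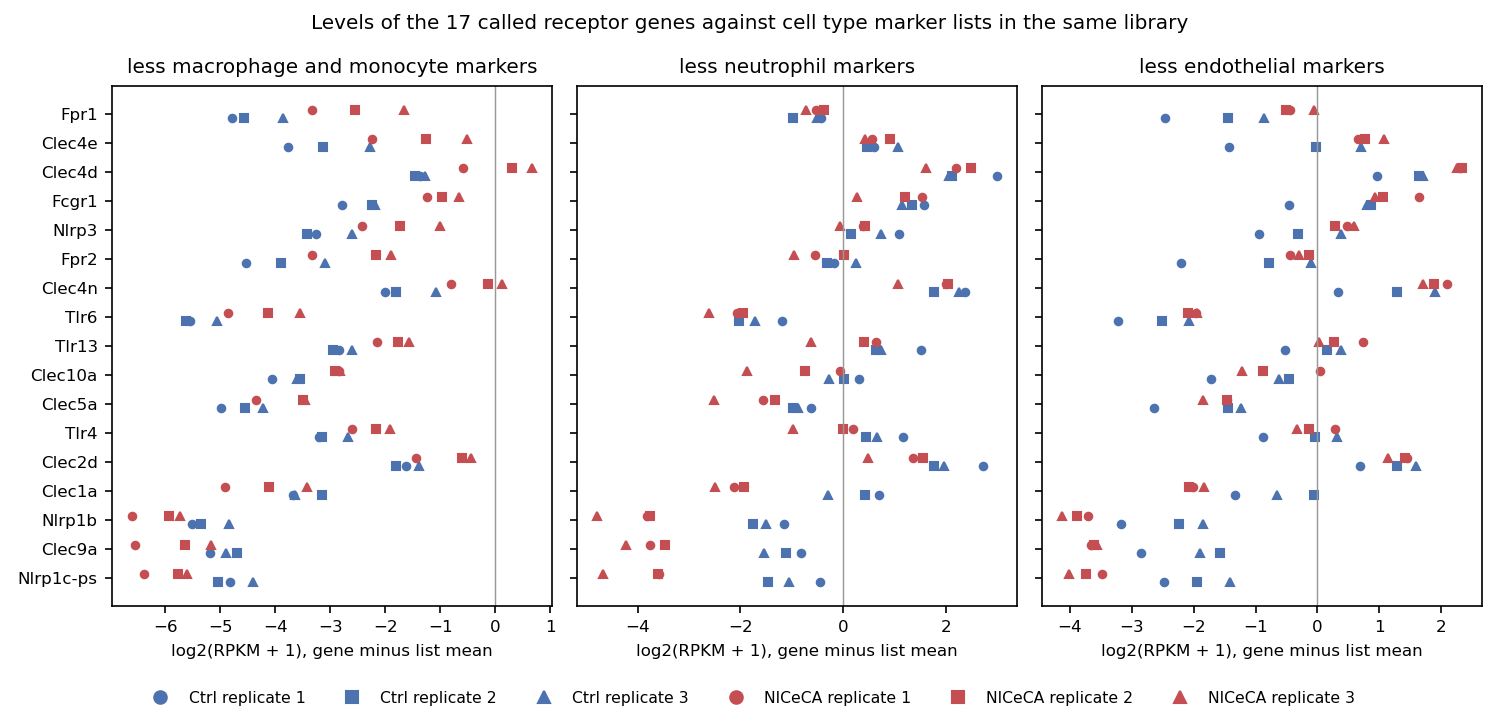
log2(RPKM + 1) of the 17 called receptor genes minus the mean of the macrophage and monocyte, neutrophil or endothelial marker list in the same library, Ctrl in blue and NICeCA in red with 1 marker shape per replicate. Of the genes that rose, 10 of 13 lie to the right in NICeCA against macrophage markers. Against neutrophil markers the genes that rose overlap or lie to the left. The 4 that fell lie to the left against neutrophil and endothelial markers, lists that were themselves higher in NICeCA on average.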

How the data were processed

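Bulk RNA-seq of CD31-captured TECs from LLC tumors of 3 Ctrl and 3 NICeCA mice was used, with 1 library per mouse, grouped by sample title. The authors deposited RPKM values without pooling replicates. The submitters' processing notes name TopHat2 and mm9, but all 71 receptor rows overlap the place of their gene in GRCm38.p6, so positions are given as GRCm38. The counting tool and its strand setting are not stated in the sources used here. RefSeq rows were used, and 33353 FANTOM3 rows entered 1 alternative only. RPKM times gene length gave whole reads within 0.05 for 100% of values under 1000 reads, so depth is known.

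The deposited RPKM values were compared on the log2(RPKM + 1) scale by limma (version 3.58.1, R 4.3.3, moderated test with the mean-variance trend, two-sided) over the 12320 RefSeq rows with a mean of at least 1 RPKM, with Benjamini-Hochberg adjustment over all of them and a threshold of 0.05. The p-values set the group difference against the spread between these mice, moderated over all tested rows. The study's methods name no test for the bulk RNA-seq. The procedure was tested on simulated data. The members, partner and marker lists were chosen with earlier results of these data known, the lists being written from general knowledge. Named genes are all called receptors, the 3 highest of each family, listed receptors of known role, and called or listed partners with up to 3 per group by size of change. Alternatives were 10 other settings of normalization, filter, pseudocount, model and rows, and leaving out each library. The authors' other experiments were not analysed here.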

Additional observations from a re-analysis of the deposited data

How the results depend on the processing

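The 17 called receptors kept their direction under every alternative in which they were fitted, and the median log2 fold change of the 38 tested receptors, as far as each was fitted, ranged from 0.40 (quantile normalization) to 0.85 (mean of at least 5 RPKM, 27 receptors), or from 0.29 to 0.72 with a library left out. Without a filter the median over all 69 receptors then fitted was 0.05. The counts of calls depended on the setting. Against 13 receptors higher and 4 lower, no filter on low values (rows at 0 in all libraries left out) gave 3 and 0 (17 and 6 at an unadjusted p under 0.05 in limma), removal of the length trend 10 and 1, quantile normalization 10 and 1, trimmed mean scaling 13 and 2, and a mean of at least 5 RPKM, under which 3 of the 4 lower genes were not fitted, 13 and 1. The share of receptor calls that were higher was thus 76.5% on the deposited scale, 86.7% with trimmed mean scaling and 90.9% with quantile normalization, and 72.2% with limma voom on recovered reads (13 higher and 5 lower). Over all tested rows the same shares were 43.4%, 58.2%, 57.8% and 40.1%. With a library left out, 0 to 15 receptors were higher and 0 to 2 lower. Of all tested rows, 17 to 911 were then higher and 1 to 832 lower. Of the partners, 6 higher and 2 lower became 2 and 0 without a filter and 6 and 0 with the length trend removed, and ranged from 0 to 15 higher and 0 to 2 lower with a library left out. The ratios of receptor pairs kept their direction with a pseudocount of 0.1 and with each library left out.

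The study's methods speak of pairs of mice without saying whether the replicate numbers mark them. The study names no paired test, and the numbers were not treated as pairs in the main comparison. Deviations of same-numbered libraries correlated at 0.12, -0.34 and -0.18. With the replicate block, 9 receptors were higher and 1 lower, and 3 partners higher and 0 lower (limma). The calls lost were those of Clec10a, Clec1a, Clec2d, Clec5a, Nlrp1b, Nlrp1c-ps and Tlr4. Only NICeCA replicate 1 correlated best with its own number. The highest correlation was 0.44, between Ctrl replicate 2 and NICeCA replicate 3, so pairs in another order cannot be told from these values.

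Directions turned only among receptors that were not called. Clec4a1 had a log2 fold change of -0.0367, Clec4a3 of -0.0111, Fcgr4 of -0.000247, Tlr2 of -0.25 and Tlr3 of 0.15 with quantile normalization, Clec4a3 of -0.0375 and Tlr3 of 0.14 with the length trend removed, and Tlr3 of 0.0412 with trimmed mean scaling. With a library left out, the ranges that crossed 0 were -0.36 to 0.25 for Clec12a, -0.12 to 0.36 for Clec4a1, -0.24 to 0.45 for Clec4a3, -0.0421 to 0.45 for Tlr1, -0.13 to 0.21 for Tlr2, -0.15 to 0.15 for Tlr3 and -0.13 to 0.49 for Tlr8. The cause of these changes was not tested. Depth limits the genes under the filter, such as Clec1b, which rest on few reads.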
